A study of Mus musculus with 2 samples.

Results

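The histone genes of mouse thymocytes were described in 2 single-cell RNA libraries, by cycling state, by thymocyte stage and by genotype. Members were all genes of the files whose symbol belongs to the histone nomenclature (Hist1h to Hist4h, H1f, H2a, H2b, H3c, H3f, H4c and H4f) and that held at least 50 UMIs over both libraries. A UMI is a tag that marks 1 captured RNA molecule. Of 77 symbols that matched, 70 passed the minimum, of 31253 genes in all. The 70 comprised 61 replication-dependent genes, 8 variant genes and the antisense gene H3f3aos. The member just inside the minimum was H3c15 with 80 UMIs, and the gene just outside was H1f6 with 7. H1f8 held 4 UMIs and H2ac19 held 1, while Hist1h2bq, H2bc1, H2ac1 and H1f7 held 0. The centromeric histone gene Cenpa and the macroH2A genes have other symbols and were not members.

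The cKO library came from thymus of mice with the genotype label SETDBf/fCD4-Cre, which joins a floxed SETDB allele to Cre under the Cd4 promoter. Which of the genes Setdb1 and Setdb2 carries the floxed allele is not stated. The WT library came from WT thymus. Thymocytes of both had been enriched on anti-CD25 beads, and the number, age and sex of the mice are not given in the sources used here. Cre driven by the Cd4 promoter is known to act from about the stage at which thymocytes switch on Cd4, so the earliest stages are not its main target. RNA tags from the 3′ end do not check a deletion within the gene. With 1 library per genotype there is no biological replicate and no test. The 95% intervals below are exact and cover counting error only, so a difference larger than its interval can still lie within the spread between mice. The cKO library held 76668166 UMIs in 8461 barcodes, of which 7372 were kept, and the WT library held 89370968 UMIs in 7852 barcodes, of which 6989 were kept. Kept cells had a median of 4653 UMIs in the cKO library and 7700 UMIs in the WT library, and 13 kept barcodes occurred in both.

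Each nucleosome winds DNA around an octamer of the core histones H2A, H2B, H3 and H4, and linker histone H1 binds where the DNA enters and leaves. Replication-dependent genes lie in clusters, lack introns and are transcribed mainly in S phase, when new DNA has to be packed. Their mRNAs normally end in a short stem-loop that the protein SLBP binds, in place of a poly(A) tail. Variant genes lie singly, give polyadenylated mRNA and supply histones throughout the cycle, such as H3.3 from H3f3a and H3f3b and H2A.Z from H2az1 and H2az2. Thymocytes divide in bursts between resting stages, so both supply modes can be seen in 1 organ. The libraries were primed on poly(A), so counts of replication-dependent genes stand for the molecules that such priming caught and not for the whole mRNA pool.

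The stem-loop was looked up in the annotated transcripts because it sets how these mRNAs end. An exact match to either of 2 forms of 16 bases, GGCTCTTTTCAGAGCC or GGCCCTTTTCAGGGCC, lay in a transcript of 31 of 61 replication-dependent members, against 35 of 31107 genes (0.113%). Of those 35 genes 31 were members. With up to 2 mismatches allowed, 43 of 61 replication-dependent members and 1 of 8 variants had a stem-loop in the annotated transcript. The variant was H2ax, whose mRNA is known in both a stem-loop and a polyadenylated form. The sequences below come from GENCODE vM21 transcripts. They are read 5′ to 3′ with up to 5 flanking bases, and capitals mark the 6 base pairs of the stem around the loop of 4 bases.
Hist1h2ap: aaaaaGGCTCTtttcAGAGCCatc
H2ac4: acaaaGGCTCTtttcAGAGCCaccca
H2bc11: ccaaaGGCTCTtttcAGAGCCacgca
H2ac8: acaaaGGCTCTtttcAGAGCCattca
H2bu2: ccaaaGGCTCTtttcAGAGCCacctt
H1f2: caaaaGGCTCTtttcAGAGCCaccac
H4c4: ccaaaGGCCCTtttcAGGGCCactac
H2ax: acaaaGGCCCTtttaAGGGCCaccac

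These 8 transcripts differ mainly in what follows the loop. The annotated transcript ends 3 bases after the stem-loop in Hist1h2ap, 11 bases after it in H2ac4 and 23 bases after it in H2bc11. It runs on for 151 bases in H2ac8, 169 in H2bu2, 770 in H4c4, 822 in H2ax and 840 in H1f2. A poly(A) signal (AATAAA or its common variant with T as the second base) lay 28 bases before the transcript end in H2ac8, 27 in H2bu2, 26 in H1f2 and 35 in H2ax, and none was found in the last 60 bases of Hist1h2ap, H2ac4, H2bc11 or H4c4.

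Promoter windows of 300 bases (250 before to 50 after the start) were given for 62 of 70 members in RefSeq (GRCm38.p6). The windows of 3 genes are shown because they stand for the classes: H2ac4 for the replication-dependent genes, H2az1 for a variant whose level followed the cycle, and H3f3b for a variant whose level was lower in S-high than in resting cells. Capitals mark matches to the CCAAT box, the TATAAA box or the octamer ATTTGCAT on either strand.
H2ac4, chr13:23750838-23751137, plus strand: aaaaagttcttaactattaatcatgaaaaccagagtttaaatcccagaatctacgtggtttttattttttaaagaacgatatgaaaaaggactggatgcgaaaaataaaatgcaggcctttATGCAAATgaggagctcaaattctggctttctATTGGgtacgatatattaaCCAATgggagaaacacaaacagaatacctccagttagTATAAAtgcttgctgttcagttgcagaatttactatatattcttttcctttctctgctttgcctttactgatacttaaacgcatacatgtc
H2az1, chr3:137864237-137864536, plus strand: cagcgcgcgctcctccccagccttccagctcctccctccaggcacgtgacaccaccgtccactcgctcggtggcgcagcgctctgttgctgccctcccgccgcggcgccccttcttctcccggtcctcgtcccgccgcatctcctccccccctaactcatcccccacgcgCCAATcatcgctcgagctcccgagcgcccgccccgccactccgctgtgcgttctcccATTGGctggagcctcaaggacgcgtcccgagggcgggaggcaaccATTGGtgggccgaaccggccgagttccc
H3f3b, chr11:116024455-116024754, minus strand: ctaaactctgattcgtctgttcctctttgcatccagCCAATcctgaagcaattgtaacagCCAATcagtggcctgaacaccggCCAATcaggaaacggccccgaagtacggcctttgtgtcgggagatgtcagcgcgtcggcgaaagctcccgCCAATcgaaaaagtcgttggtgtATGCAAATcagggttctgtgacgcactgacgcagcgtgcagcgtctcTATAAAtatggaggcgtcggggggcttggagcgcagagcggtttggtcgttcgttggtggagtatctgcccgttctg

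CCAAT lay in 47 of 56 windows of replication-dependent members (83.9%), against 37.4% of all 32851 windows of the table. Every window of the H1, H2A, H2B and H3 members held it, and 3 of 12 windows of H4 members did. TATAAA lay in 58.9% of replication-dependent windows, against 13.6% of all windows. The octamer ATTTGCAT lay in 6 of 15 H2B and 5 of 14 H2A windows and in 0 of the H1, H3 and H4 windows, against 1.74% of all windows. Of the 29 H2A and H2B windows 14 overlap the window of another member, since H2A and H2B genes often lie head to head. The letters TTTGAA lay in 44.6% of replication-dependent windows, against 17.9% of all. TTTCCCGC lay in 1.79%, against 1.07%, and TTTGGCGC in 0, against 0.514%. Among variants CCAAT lay in 5 of 7 windows, TATAAA in 1 (H3f3b) and ATTTGCAT in 1 (H3f3b). All 6 motifs were searched on both strands, none is contained in another, and a match is a description of letters, not a shown binding site.

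Replication-dependent members held 457817 UMIs over both libraries, 0.276% of all UMIs, and variants held 1489273, or 0.897%. H2A genes made up 54.0% of the replication-dependent UMIs, H1 genes 22.4%, H2B genes 10.9%, H4 genes 6.95% and H3 genes 5.74%. The 3 most abundant, Hist1h2ap, H1f5 and H2ac8, held 58.8%, and the 12 most abundant held 80.8%. Among variants H3.3 genes made up 62.2%, the H2A variants 37.0% and the H1 variants 0.825%. Hist1h2ap, Hist1h2ao and Hist1h2an are near-identical copies, so the split of reads among them is uncertain.

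Cycling states were set on each cell after thinning it to 2000 UMIs, from 39 S-phase genes and 39 G2 and M phase genes, none of them a histone gene. Cells with at least 8 UMIs of a list were called high for it, and cells with at most 3 of each were called resting. The states held 3502, 1079, 903, 476 and 212 cKO cells and 3370, 1207, 1028, 583 and 253 WT cells, in the order resting, intermediate, S-high, S and G2M-high, and G2M-high. A further 1200 cKO and 548 WT cells were too shallow for a state. S-list counts of 7 or 8, next to the cut, were seen in 288 cKO and 304 WT cells. Depth moved with the state, from a median of 3746.5 UMIs in resting cKO cells and 5229 in resting WT cells to 21759 in S-high cKO cells and 22786.5 in S-high WT cells. Levels are therefore given as CPM, the UMIs of a gene scaled to a fixed total of UMIs summed over the cells of a state, and are relative to the total RNA captured.

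Replication-dependent genes followed the cycle in both libraries. Their summed level in cKO cells was 1162 CPM (1146 to 1177) in resting, 1229 in intermediate, 2555 (2533 to 2577) in S-high, 5320 (5284 to 5357) in S and G2M-high, and 3700 (3654 to 3747) in G2M-high cells. The corresponding WT levels were 1284 CPM (1269 to 1299), 1389, 2578 (2558 to 2598), 5268 (5236 to 5301) and 4184 (4141 to 4228). The level was highest where S and G2M genes were both high. S-high cells held 2.20 times (2.17 to 2.23) the resting level in the cKO library and 2.01 times (1.98 to 2.04) in the WT library, and S and G2M-high cells held 4.58 times (4.51 to 4.65) and 4.10 times (4.05 to 4.16). Per cell, an S and G2M-high cell held on average 173 replication-dependent UMIs in the cKO library and 175 in the WT library, against 6.31 and 7.95 in resting cells.

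Variant genes were more abundant than replication-dependent genes in every state, and their sum changed less. Their sum was 8001 CPM in resting, 8289 in S-high, 11033 in S and G2M-high and 10209 in G2M-high cKO cells, and 7993, 8506, 10905 and 10552 CPM in the same WT states. S-high over resting was 1.04 (1.03 to 1.04) in the cKO library and 1.06 (1.06 to 1.07) in the WT library. With every cell weighted equally in place of its UMIs, these ratios were 0.873 and 0.904, so the sum has no settled direction. It hides opposite changes, as without H3f3b the other 7 variants reached 1.63 times the resting level in S-high cKO cells and 1.65 times in S-high WT cells. Replication-dependent genes made up 12.7% (12.5 to 12.8) of histone UMIs in resting and 32.5% (32.4 to 32.7) in S and G2M-high cKO cells, and 13.8% (13.7 to 14.0) and 32.6% (32.4 to 32.7) in WT cells.

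**Figure D1:**
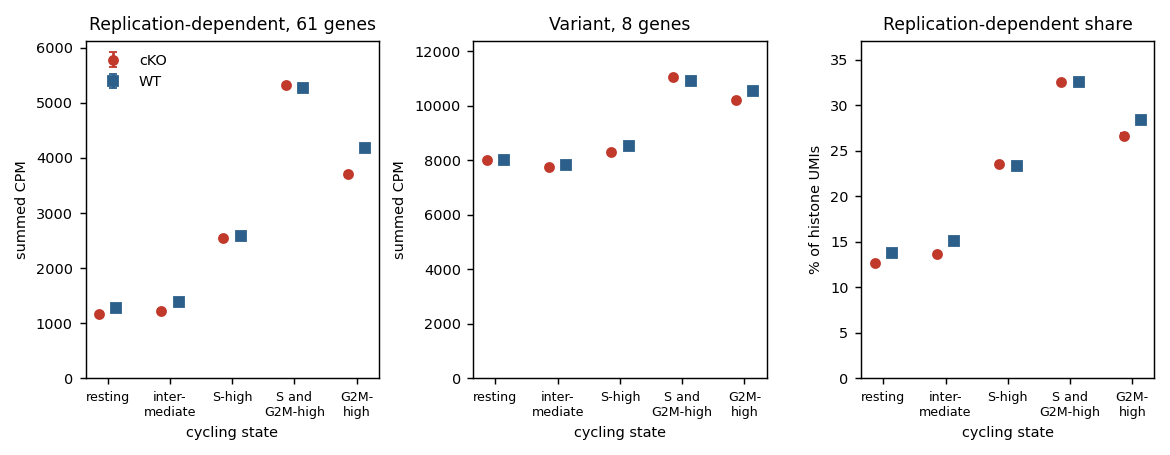
Summed CPM of the 61 replication-dependent genes (left) and the 8 variant genes (middle), and the replication-dependent share of histone UMIs in percent (right), by cycling state. Points are 1 library each (cKO red circles, WT blue squares), with exact 95% counting intervals that are mostly smaller than the points; the left panel peaks at 5320 CPM in cKO and 5268 CPM in WT S and G2M-high cells.

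In single cells thinned to 2000 UMIs, 81.9% (80.6 to 83.1) of resting cKO cells and 83.1% (81.8 to 84.3) of resting WT cells held a replication-dependent UMI, and 98.9% of cKO and 98.5% of WT S and G2M-high cells did. Unthinned, the resting shares were 93.5% in cKO and 95.4% in WT cells. Hist1h2ap alone was seen in 39.2% of resting and 93.1% of S and G2M-high thinned cKO cells, and in 48.8% and 94.0% of such WT cells. No cell type that should lack these mRNAs was present to measure free RNA, so the resting shares cannot be read as the share of cells that transcribe the genes.

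The linker histones split by gene. H1f5 had 60.2 CPM in resting, 348 in S-high, 722 (709 to 736) in S and G2M-high and 367 in G2M-high cKO cells, and 70.1, 350, 712 (700 to 724) and 436 CPM in the same WT states. H1f1 had 17.4 CPM in resting and 124 in S and G2M-high cKO cells, and 19.4 and 125 in WT cells. H1f4 had 48.3 CPM in resting and 162 in S and G2M-high cKO cells, and 60.4 and 184 in WT cells. By CPM, these 3 were more than 1.5-fold above resting in S-high and in S and G2M-high cells of both libraries. In S-high cells this held for the thinned means of H1f5 and H1f1 but not of H1f4. Thinned means of H1f4 were 0.114 UMIs in resting and 0.116 in S-high cKO cells, and 0.134 and 0.159 in WT cells. In S and G2M-high cells they were 0.326 in cKO and 0.398 in WT. H1f3 had 39.6 CPM in resting, 47.8 in S-high and 82.5 in S and G2M-high cKO cells, and 45.8, 49.2 and 89.6 in WT cells. Its thinned means were 0.0959 UMIs in resting and 0.0764 in S-high cKO cells, and 0.106 and 0.102 in WT cells. H1f2 ran the other way, with 129 CPM in resting, 49.7 in S-high and 77.7 in S and G2M-high cKO cells, and 123, 55.3 and 84.2 CPM in WT cells. H1f2 and H1f5 thus differed in opposite directions between resting and S-high cells, although both are listed as replication-dependent.

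The H2A sum in S and G2M-high cells was 6.84 times the resting level (6.68 to 7.0) in the cKO library and 5.51 times (5.41 to 5.63) in the WT library. Hist1h2ap had 306 CPM (298 to 314) in resting, 952 in S-high, 1956 (1934 to 1978) in S and G2M-high and 1340 in G2M-high cKO cells, and 421 (412 to 430), 1110, 2237 (2216 to 2259) and 1689 CPM in WT cells. H2ac8 had 81.9 CPM in resting and 616 (604 to 629) in S and G2M-high cKO cells, and 80.6 and 470 (461 to 480) in WT cells. H2ac4 had 5.31 CPM (4.32 to 6.45) in resting and 129 (124 to 135) in S and G2M-high cKO cells, and 6.14 (5.12 to 7.29) and 102 (98.0 to 107) in WT cells. For these 3 genes the counting intervals of resting and S and G2M-high cells did not overlap in either library. The share of all genes without such overlap was not counted, so this does not set the 3 genes apart.

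The H3 sum was 6.64 times the resting level in S and G2M-high cKO cells and 5.66 times in WT cells, and the H4 sum 3.72 and 3.15 times. H4c4 had 28.2 CPM in resting and 183 (177 to 190) in S and G2M-high cKO cells, and 27.9 and 147 (142 to 153) in WT cells. H4c9 had 33.4 and 86.3 CPM in cKO cells and 32.0 and 79.8 in WT cells for the same states. H3c3 and H3c2, singled out after their values were seen, were near 0 at rest. H3c3 had 1.31 CPM in resting and 86.9 in S and G2M-high cKO cells, and 1.15 and 76.3 in WT cells, and H3c2 had 0.263 and 27.2 CPM in cKO cells and 0.0959 and 27.0 in WT cells.

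The H2B sum was lower in S-high than in resting cells, at 0.838 times the resting level (0.805 to 0.871) in the cKO library and 0.808 times (0.777 to 0.840) in the WT library, and reached 1.57 and 1.5 times in S and G2M-high cells. Its members did not move together. H2bc11 had 10.2 CPM in resting and 109 in S and G2M-high cKO cells, and 9.01 and 92.9 in WT cells. H2bu2, the one replication-dependent member on chromosome 11, had 143 CPM (138 to 148) in resting, 23.7 (21.6 to 25.9) in S-high, 36.7 in S and G2M-high and 48.8 in G2M-high cKO cells, and 131 (126 to 136), 23.4 (21.5 to 25.4), 34.7 and 47.3 CPM in WT cells. H2bu2 was thus the replication-dependent member with the lowest S-high over resting fold in each library, with a log2 fold of -2.37 in cKO and -2.26 in WT cells. H2bc4, named after its values were seen, had 60.3 CPM in resting, 35.3 in S-high and 27.9 in S and G2M-high cKO cells, and 54.4, 35.5 and 21.3 in WT cells.

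Folds of single genes are given on the scale log2((CPM + 5)/(CPM + 5)), for genes with at least 20 UMIs over both sides, which shrinks the folds of low genes. At 1.5-fold, 29 of 59 replication-dependent members tested were higher in S-high than in resting cKO cells, against 10.9% of all genes, and 4 were lower (H1f2, H2bc21, H2bc4 and H2bu2), against 25.0% of all genes. In WT cells 23 of 60 were higher, against 10.5%, and 4 were lower (H1f2, H2bc21, H2bu2 and H4f16), against 23.3%. In S and G2M-high over resting cells 46 of 60 were higher in the cKO library, against 11.5%, and 46 of 61 in the WT library, against 11.5%. In that comparison 3 were lower in the cKO library (H1f2, H2bc4 and H2bu2), against 27.2% of all genes, and 2 in the WT library (H2bc4 and H2bu2), against 26.6%. In G2M-high over resting cells 41 of 58 were higher in the cKO library, against 10.3%, and 43 of 59 in the WT library, against 10.4%. The median log2 fold of all genes in S-high over resting cells was itself -0.22 in cKO and -0.21 in WT cells, against 0.52 and 0.30 for the replication-dependent members, so a member at an unchanged CPM stood above the typical gene. In S and G2M-high cells the median over the members tested was 1.07 in cKO and 0.96 in WT cells, where the median over all genes was -0.25 and -0.24.

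Variants were divided between cycling and resting cells. H2az1, which encodes the main H2A.Z, had 636 CPM (625 to 648) in resting, 2668 in S-high, 3624 (3594 to 3654) in S and G2M-high and 3302 in G2M-high cKO cells, and 624 (614 to 635), 2709, 3539 (3512 to 3566) and 3325 CPM in WT cells. H2az2, its paralog, had 308 CPM in resting, 412 in S-high and 747 in G2M-high cKO cells, and 311, 421 and 723 in WT cells. H2ax, whose protein is phosphorylated at DNA breaks, had 93.8 CPM in resting, 235 in S-high, 798 in S and G2M-high and 993 (969 to 1017) in G2M-high cKO cells, and 112, 252, 799 and 1182 (1159 to 1205) in WT cells. H2az1 was highest in S and G2M-high cells, whereas H2az2 and H2ax were highest in G2M-high cells.

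H3f3b had 4361 CPM (4332 to 4391) in resting, 2357 (2337 to 2379) in S-high, 3116 in S and G2M-high and 2439 in G2M-high cKO cells, and 4317 (4289 to 4345), 2431 (2412 to 2451), 3119 and 2574 CPM in WT cells. H3f3a, which encodes the same H3.3 protein, ranged over the 5 states from 2189 to 2427 CPM in cKO cells and from 2225 to 2438 CPM in WT cells. H1f0, known from other work as a linker histone of resting and differentiated cells, had 69.7 CPM in resting, 23.6 in S-high and 37.4 in S and G2M-high cKO cells, and 78.3, 27.4 and 39.6 in WT cells. H2aj stayed between 279 and 338 CPM in cKO and between 275 and 322 CPM in WT cells over the 5 states. H1f10, a linker variant, had 20.1 CPM in resting and 32.8 in S and G2M-high cKO cells, and 22.2 and 37.9 in WT cells. At 1.5-fold, H2az1 and H2ax were higher and H3f3b and H1f0 were lower in S-high than in resting cells of both libraries. The antisense gene H3f3aos held 247 UMIs over both libraries and did not pass 1.5-fold between states in either library on the scale with 5 CPM added.

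**Figure D2:**
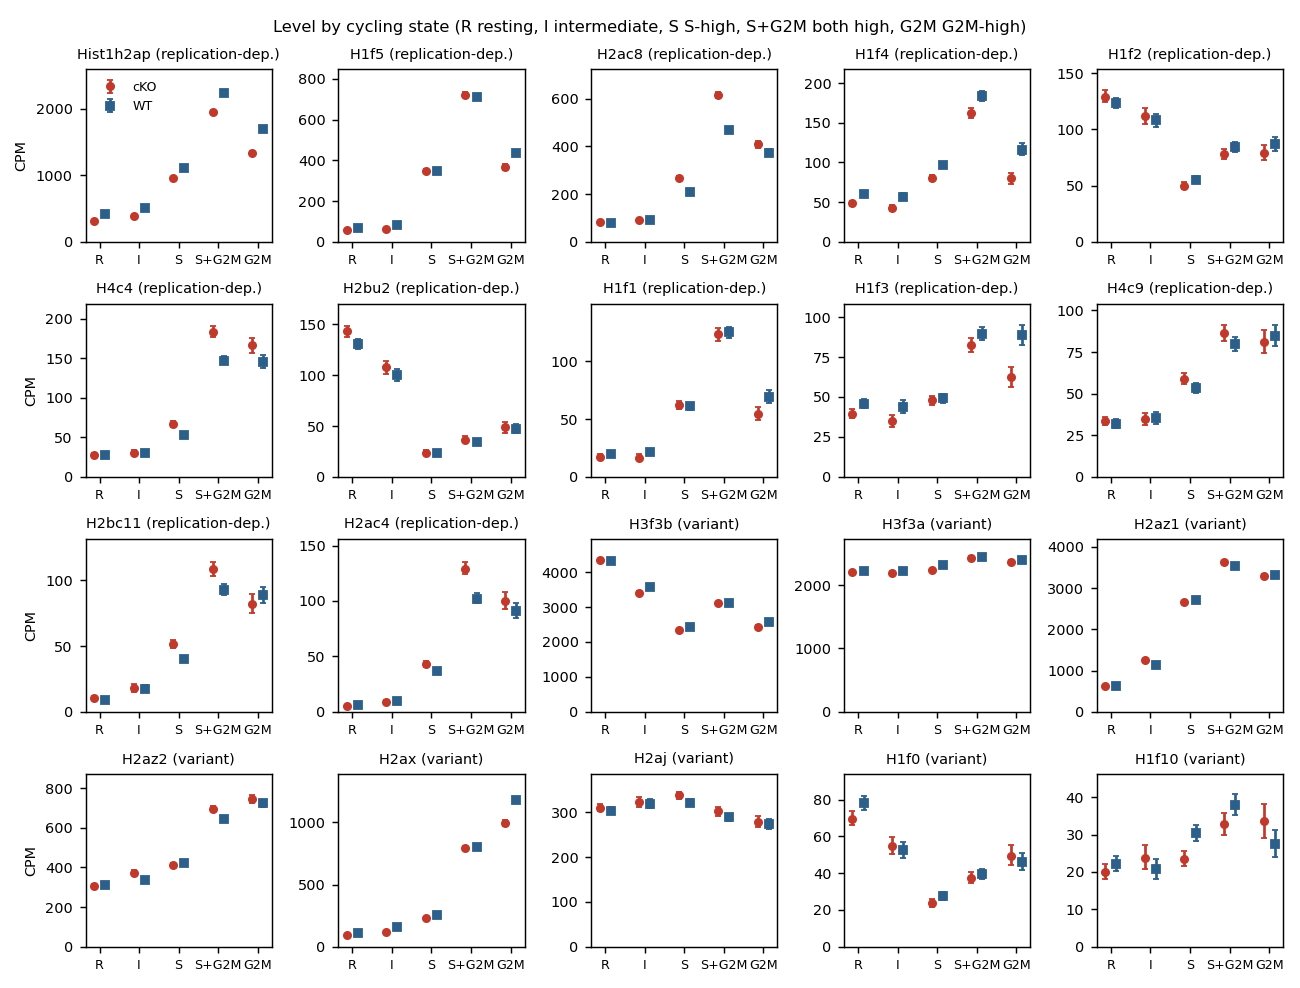
CPM of the 12 most abundant replication-dependent genes and the 8 variants (1 panel each, each with its own axis from 0) in resting (R), intermediate (I), S-high (S), S and G2M-high (S+G2M) and G2M-high (G2M) cells. Red circles are the cKO library and blue squares the WT library, with exact 95% counting intervals; H1f2, H2bu2, H3f3b and H1f0 are highest in resting cells, and Hist1h2ap, H1f5 and H2ac8 peak in S and G2M-high cells.

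The states mix thymocyte stages, so the named genes were also read within stages, a step added after the data were seen. In Cd8-positive immature cells H2bu2 had 298 CPM in resting and 27.0 in S-high cKO cells, and 336 and 30.9 in WT cells, and in early double-negative (DN) cells it had 52.2 and 23.6 in cKO and 64.9 and 19.9 in WT cells. H2bu2 was thus lower in S-high cells in each of these stages, and most so where its resting level was highest. H3f3b had 6830 CPM in resting and 2509 in S-high Cd8-positive immature cKO cells, and 7107 and 2431 in WT cells. In early DN cells, however, H3f3b had 3047 and 2445 CPM in cKO and 3462 and 2571 in WT cells, which is less than 1.5-fold, and in S and G2M-high early DN cells it was above its resting level, at 3832 in cKO and 3868 in WT cells. H2az1 had 493 CPM in resting and 3458 in S-high Cd8-positive immature cKO cells, and 476 and 3314 in WT cells, and in early DN cells 858 and 2119 in cKO and 684 and 2092 in WT cells. H1f4 was 1.5-fold higher in S-high than in resting early DN cKO cells, at 69.3 and 35.3 CPM, but not in WT cells, at 76.9 and 63.8 CPM. In Ptcra-gated DN cells H1f4 was 1.5-fold higher in both libraries, at 82.7 in S-high and 45.3 CPM in resting cKO cells and 94.9 and 58.6 CPM in WT cells. In Cd8-positive immature cells its S-high and resting levels were 90.7 and 76.0 CPM in the cKO and 104 and 103 CPM in the WT library. H1f2 was lower in S-high than in resting early DN, Ptcra-gated DN and Cd8-positive immature cells of both libraries. In S and G2M-high early DN cells, however, H1f2 had 117 CPM in WT, against 109 at rest, and 80.7 in cKO, against 122 at rest.

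The annotated 3′ end divided the replication-dependent members, again as a description made after the data were seen. Of the 61 members, 22 had under 100 annotated bases after the stem-loop, 21 had 100 bases or more and 18 had no stem-loop in the annotated transcript. Some of these 18 transcripts were short, at 381 bases in H2bc13, H2bc15 and H2bc18 and 312 in H4c12. A stem-loop past such an annotated end could not be found, so the group is not known to lack one. H2bc4 and H2bc21 had longer transcripts, of 1156 and 2620 bases. In S and G2M-high over resting cells the median log2 fold of members with under 100 bases was 1.75 in the cKO and 1.71 in the WT library, with 19 of 22 higher by 1.5-fold and 0 lower in each, where 11.5% of all genes were higher in each library. Members with 100 bases or more had medians of 0.84 in the cKO and 0.71 in the WT library, with 15 of 20 and 14 of 21 higher. Those with no annotated stem-loop had medians of 1.02 in the cKO and 0.97 in the WT library, with 12 of 18 and 13 of 18 higher. H2bu2 and H1f2, which were lower in S-high than in resting cells of both libraries, have 169 and 840 annotated bases after the loop. H2bc4 and H2bc21 have no annotated stem-loop. The split is not clean, since H2ac8 with 151 bases and H4c4 with 770 had log2 folds of 2.84 and 2.5 in the cKO library and 2.47 and 2.21 in the WT library.

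**Figure D3:**
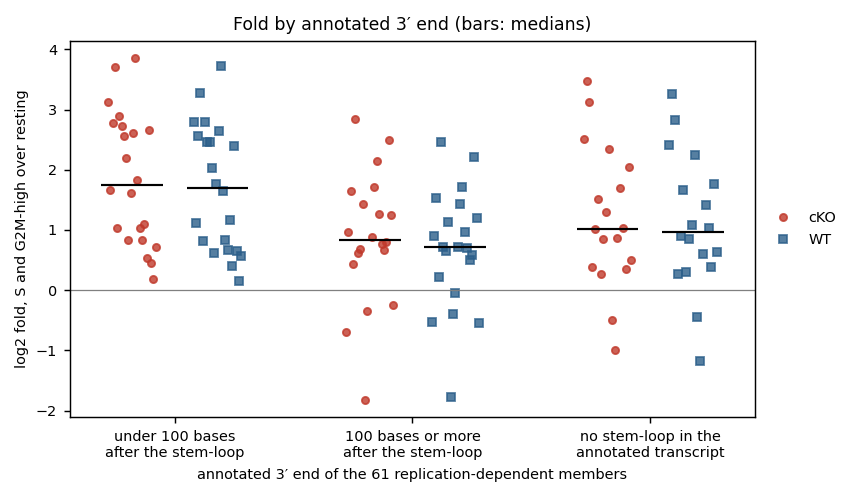
Log2 fold of S and G2M-high over resting cells for each replication-dependent member with at least 20 UMIs, grouped by how far the annotated transcript runs past its stem-loop. Each point is 1 gene in 1 library (cKO red circles, WT blue squares) and black bars are medians, which are 1.75 in cKO and 1.71 in WT for the genes with under 100 bases.

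Of the replication-dependent members 50 lie on chromosome 13, 9 on chromosome 3 and 1 each on chromosomes 11 (H2bu2) and 6 (H4f16). The median log2 fold of S and G2M-high over resting cells was 1.26 in cKO and 1.11 in WT for chromosome 13, and 0.85 and 0.50 for chromosome 3. H4f16, placed with the H4 genes by its symbol, had 7.46 CPM in resting and 5.56 in S and G2M-high cKO cells, and 12.1 and 6.67 in WT cells. The ratio of H4f16 in S and G2M-high over resting cells was 0.745 (0.563 to 0.981) in the cKO and 0.550 (0.442 to 0.683) in the WT library, with nothing added to the CPM.

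Stages were gated on marker genes. Early DN cells held at least 2 UMIs of Kit and Cpa3, Ptcra-gated DN cells at least 2 of Ptcra with 0 of Cd4, and both at most 1 of Cd8a and Cd8b1. Cd8-positive immature cells held at least 2 UMIs of Cd8a and Cd8b1. Post-selection cells held at least 4 of Cd5, Itm2a and Cd69, and mature cells at least 2 of Ccr7, S1pr1 and Klf2, both with Trac and without Ptcra. Foxp3-positive cells held at least 1 UMI of Foxp3. A cell took the first gate it met, Foxp3 before maturity and Cd8 before the DN gates. Genes not used by the gates bore the names out: Rag1 was highest in Cd8-positive immature cells, at 636 CPM in cKO and 464 in WT, and Hes1 in Ptcra-gated DN cells, at 260 and 235 CPM. Mature Foxp3-negative cells carried the regulatory T cell gene Ikzf2 at 957 CPM in cKO and 970 in WT, close to 956 and 1239 in Foxp3-positive cells, so that gate is not free of cells of that lineage. The gates set for B cells and for myeloid cells went against their labels, with the T cell gene Cd3e at 450 CPM in cKO and 510 in WT, and at 659 and 657 CPM, and are not used. Median depth differed between stages, from 2335 UMIs in cKO and 2638.5 in WT Cd8-positive immature cells to 16112.5 and 14061 in early DN cells.

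Among resting cells the replication-dependent level was highest in the Cd8-positive immature stage and lowest in mature Foxp3-negative and Foxp3-positive cells. In the cKO library it was 1050 CPM in early DN, 1329 in Ptcra-gated DN, 1687 (1651 to 1723) in Cd8-positive immature, 869 in post-selection, 476 in mature Foxp3-negative and 477 CPM in Foxp3-positive cells. In the WT library it was 1086, 1393, 2079 (2036 to 2124), 856, 554 and 513 CPM for the same stages. Cd8-positive immature cells thus held 3.54 times (3.28 to 3.82) the Foxp3-positive level in the cKO library and 4.05 times (3.77 to 4.36) in the WT library. Variants differed less, at 10825 CPM in Cd8-positive immature and 6426 in Foxp3-positive cKO cells, and 11216 and 6163 CPM in WT cells. For the replication-dependent sum the counting intervals of the mature Foxp3-negative and Foxp3-positive stages overlapped in both libraries, whereas for the variant sum they overlapped in the cKO and not in the WT library.

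**Figure D4:**
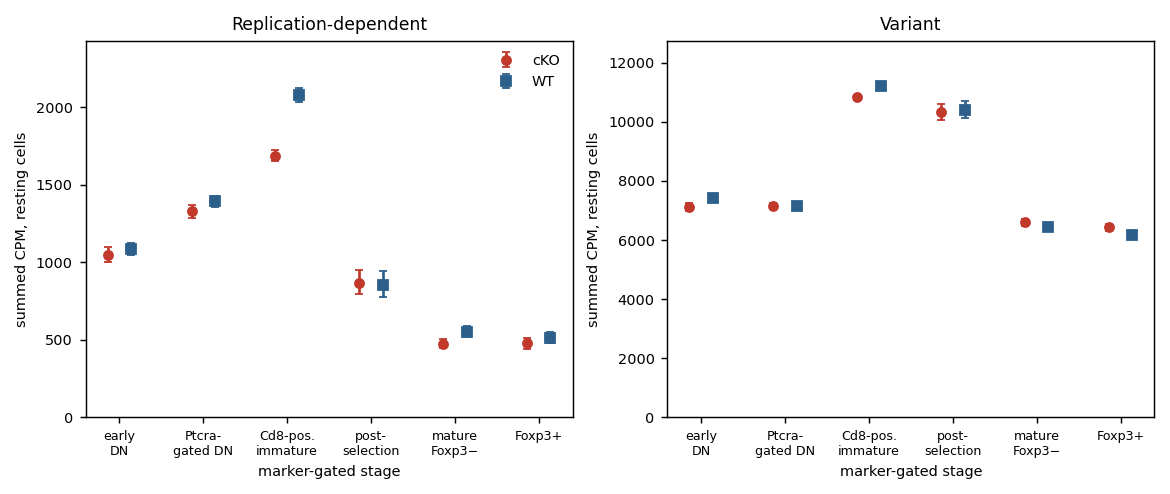
Summed CPM of replication-dependent (left) and variant (right) histone genes in resting cells of 6 marker-gated stages. The gates give no order of development between mature Foxp3-negative and Foxp3-positive cells. Red circles are the cKO library and blue squares the WT library, with exact 95% counting intervals; the replication-dependent sum is highest in Cd8-positive immature cells, at 1687 CPM in cKO and 2079 CPM in WT.

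Without Hist1h2ap the Cd8-positive immature cells held 3.26 times the Foxp3-positive level in the cKO library and 3.54 times in the WT library. Resting H2bu2 was 298 CPM (283 to 314) in cKO and 336 (319 to 354) in WT Cd8-positive immature cells, against 54.4 and 37.5 CPM in Foxp3-positive cells. H1f5 was 102 CPM in cKO and 129 in WT Cd8-positive immature cells, against 11.7 and 14.0 in Foxp3-positive cells. H3f3b was also highest in Cd8-positive immature cells, with 6830 CPM in cKO and 7107 in WT cells, followed by post-selection cells with 5870 and 5721, and had 3047 and 3462 in early DN and 3197 and 2977 in Foxp3-positive cells. H2az1 did not, as its highest resting level was in Foxp3-positive cells, at 971 CPM (922 to 1021) in cKO and 1016 (966 to 1067) in WT, against 493 and 476 in Cd8-positive immature cells. H2bc4 was highest in early DN cells, at 130 CPM in cKO and 83.2 in WT. H1f0 was highest in Ptcra-gated DN cells, at 109 CPM in cKO and 97.0 in WT. It was lower in mature Foxp3-negative cells, at 22.1 and 27.7 CPM, and in Foxp3-positive cells, at 12.3 and 34.9 CPM. H1f10 was near the limit of detection in Foxp3-positive cells, with 2 UMIs in the cKO and 0 in the WT library, which allows up to 2.34 CPM in WT by the exact interval. As ratios, early DN, Ptcra-gated DN and Cd8-positive immature cells lay closer together in S and G2M-high than in resting cells. In that order, S and G2M-high cells held 5895, 5126 and 5537 CPM of replication-dependent RNA in cKO and 6161, 5345 and 5278 CPM in WT. The later stages and the other cycling states were not part of this comparison.

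On the scale with 5 CPM added, no member passed 1.5-fold between the cKO and WT libraries in any of the 5 cycling states. The count depends on that choice, since with 1 CPM added 4 members were higher and 5 lower in at least 1 state. H4f16, for example, had 7.46 CPM in cKO and 12.1 in WT resting cells, a ratio of 0.615 (0.498 to 0.759) with nothing added. In resting cells 0 of 54 replication-dependent members and 0 of 8 variants were past 1.5-fold, against 0.490% of all genes higher and 0.482% lower. In intermediate cells it was 0 of 53, against 0.266% and 0.487%, in S-high cells 0 of 59, against 0.171% and 0.213%, in S and G2M-high cells 0 of 60, against 0.260% and 0.224%, and in G2M-high cells 0 of 57, against 0.557% and 0.422%. Counts of 0 are near the background and are no result about the members. Log2 folds of replication-dependent members lay between -0.46 (H4f16) and 0.26 in resting cells and between -0.51 (H1f4) and 0.37 in G2M-high cells.

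The summed replication-dependent level of cKO over WT was 0.905 (0.889 to 0.921) in resting, 0.885 (0.864 to 0.907) in intermediate, 0.991 (0.980 to 1.0) in S-high, 1.01 (1.0 to 1.02) in S and G2M-high and 0.884 (0.870 to 0.899) in G2M-high cells. Much of this rests on Hist1h2ap, whose lower level in the cKO library was already known from these data. Without Hist1h2ap the ratios were 0.992, 0.960, 1.09, 1.11 and 0.946. The variant sum of cKO over WT was 1.0, 0.992, 0.975, 1.01 and 0.967 in the same states.

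Hist1h2ap was lower in the cKO library in all 5 states and in all 6 resting stages. Its resting levels were 305 CPM in cKO and 365 in WT early DN cells, 451 and 538 in Ptcra-gated DN, 375 (359 to 393) and 586 (563 to 610) in Cd8-positive immature, 162 and 230 in post-selection, 63.5 and 106 in mature Foxp3-negative, and 74.5 and 91.5 in Foxp3-positive cells. The counting intervals of the libraries overlapped in post-selection and in Foxp3-positive cells and not in the other 4 stages. Depth also differed between the libraries, with 3746.5 UMIs per resting cKO cell and 5229 per resting WT cell at the median, and its part in this was not tested. H2ac8 and H4c4 went the other way in cycling cells: in S and G2M-high cells H2ac8 had 616 CPM in cKO and 470 in WT cells, and H4c4 had 183 and 147. H2ac4 had 129 and 102 CPM there. These 3 genes stayed below 1.5-fold, with log2 folds of 0.39 for H2ac8, 0.31 for H4c4 and 0.32 for H2ac4. Among S and G2M-high cells 44 of 60 replication-dependent members were above 0 and the median log2 fold was 0.12, beside a median of -0.01 over all genes. In G2M-high cells 21 of 57 were above 0 and 36 below, with a median of -0.06, beside -0.01 over all genes.

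**Figure D5:**
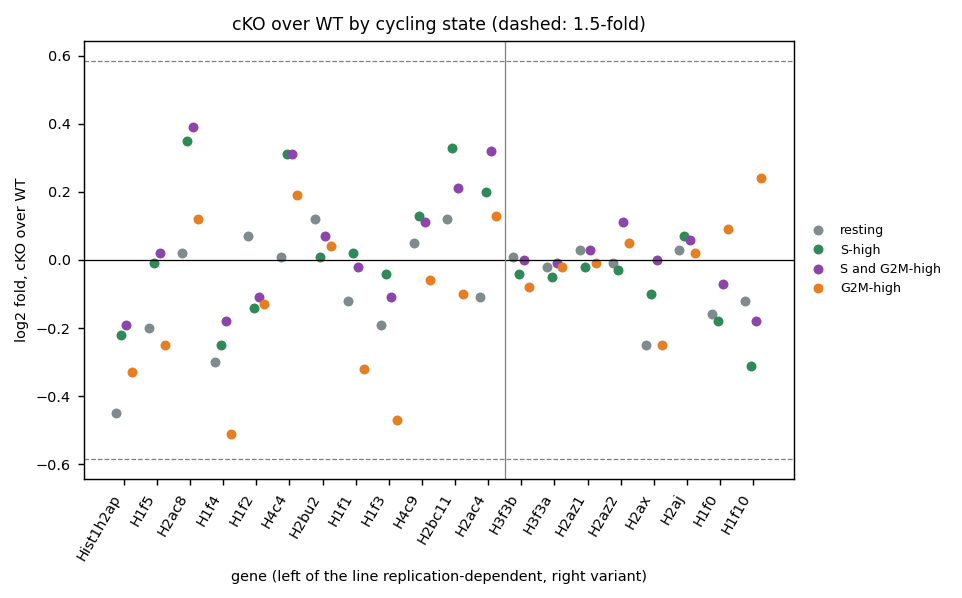
Log2 fold of cKO over WT for the 12 most abundant replication-dependent genes (left of the vertical line) and the 8 variants (right), in resting, S-high, S and G2M-high and G2M-high cells. Each point is 1 gene in 1 state with no replicate, and every point lies within the dashed lines at 1.5-fold.

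Within resting cells of single stages a few members passed 1.5-fold. In early DN cells 3 of 25 replication-dependent members were higher in cKO (H2bc4, H4c9 and Hist1h2br), against 1.68% of all genes, and H1f4 was lower, against 4.33%. H1f4 had 35.3 CPM (26.6 to 45.8) in cKO and 63.8 (54.6 to 74.0) in WT early DN cells. In Ptcra-gated DN cells H2bc8 was higher and H3c4 lower of 36 tested, against 0.741% and 1.19%. In Cd8-positive immature cells Hist1h2ap and H2ac11 were lower of 44 tested, against 0.709%, and 0 were higher, against 0.709%. In post-selection cells H1f3 was higher and H2bc11 and H4c9 were lower of 10 tested, where 8.26% and 7.41% of all genes passed.

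In mature Foxp3-negative cells H2ac8 was higher and H2bc4, H3c1 and Hist1h2ap were lower of 20 tested, against 3.15% and 3.18% of all genes. In Foxp3-positive cells H4c4 and H4c9 were higher and no replication-dependent member was lower of 20 tested, against 3.72% and 4.76%. The only variant past 1.5-fold in a resting stage was H1f0, with 12.3 CPM (7.41 to 19.2, 19 UMIs) in cKO and 34.9 CPM (26.3 to 45.5, 55 UMIs) in WT Foxp3-positive cells. The call of H2bc4 in early DN cells rests on 207 UMIs in the cKO and 227 in the WT library, whereas that of Hist1h2br rests on 16 and 13 and that of H3c4 on 4 and 24. H4c9 was higher in cKO cells of 2 stages and lower in post-selection cells, where it had 12 UMIs in the cKO and 18 in the WT library.

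The genes that process and deposit histones were read from 2 lists chosen for their roles. Of 17 listed symbols of histone mRNA transcription and processing genes, 16 were present in the data and 15 had enough UMIs. Of these 15 genes 7 were 1.5-fold higher and 1 lower in S-high than in resting cells of both libraries, with a median log2 fold of 0.57. Among all genes 10.9% were higher and 25.0% lower in the cKO library and 10.5% and 23.3% in the WT library, with medians of -0.22 and -0.21. Slbp, whose protein binds the stem-loop, had 87.5 CPM in resting, 368 in S-high, 385 in S and G2M-high and 122 in G2M-high cKO cells, and 89.8, 390, 402 and 129 CPM in WT cells. Slbp was thus low again in G2M-high cells, where replication-dependent RNA was still at 3700 CPM in cKO and 4184 in WT cells. Ccne1, the cyclin that starts S phase, had 1.47 CPM in resting and 34.8 in S-high cKO cells, and 1.92 and 30.0 in WT cells, and its kinase gene Cdk2 had 14.2 and 48.8 CPM in cKO and 15.3 and 48.7 in WT cells. Casp8ap2, a component of the histone locus body, had 52.4 and 106 CPM in cKO and 51.5 and 112 in WT cells.

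Tut7, whose enzyme adds uridines to RNA ends, had 139 CPM in resting and 51.1 in S-high cKO cells, and 142 and 55.4 in WT cells. Upf1, Lsm10 and Sympk followed it at the low end of the list, with log2 folds averaged over the libraries of 0.13, 0.14 and 0.22. Of 34 chaperone and exchange genes 20 were higher and 2 lower in both libraries, with a median log2 fold of 0.86, beside the same shares and medians of all genes. Asf1b, which hands H3 and H4 to other chaperones, had 4.15 CPM in resting and 82.4 in S-high cKO cells, and 4.70 and 79.9 in WT cells. The subunits of the replication-coupled assembly factor were also higher, Chaf1a with 5.78 and 85.8 CPM in cKO and 7.53 and 91.1 in WT cells, and Chaf1b with 22.3 and 112 in cKO and 19.0 and 105 in WT cells. Nasp, which stores H3 and H4, had 82.1 and 435 CPM in cKO and 83.8 and 447 in WT cells. The lowest of the list were Ubn2, Srcap, Cabin1 and Ubn1, of which Ubn2 and Srcap passed 1.5-fold in both libraries. Ubn2, a subunit of the HIRA complex that deposits H3.3, had 115 and 55.1 CPM in cKO and 124 and 59.5 in WT cells, and Srcap, a remodeler that deposits H2A.Z, had 26.6 and 14.7 in cKO and 28.4 and 14.8 in WT cells. Cabin1 had a log2 fold averaged over the libraries of -0.63, and Ubn1 had 139 and 97.9 in cKO and 136 and 99.3 in WT cells. Hira itself had 19.8 and 32.0 CPM in cKO and 19.5 and 31.7 in WT cells. Log2 folds of cKO over WT lay from -0.35 to 0.28 for both lists over the 5 states, so that 0 passed 1.5-fold, which is near the background of 0.171% to 0.557% of all genes in a direction.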

How the data were processed

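Per the submitters' processing notes, CASAVA 1.8, Cell Ranger 6.1.1 and Seurat 4.0.3 were used upstream; genome build and annotation are not given in the sources used here. The deposited files hold raw UMI counts per gene and barcode, as their whole numbers show, from 10x 3′ v3.1 libraries. Cells with at least 500 genes, 1000 UMIs and at most 10% mitochondrial UMIs were kept. Doublets were called with scrublet (scanpy 1.11.5, expected rate 0.06); its automatic threshold of 0.638 called 1 of 7501 cKO cells, so the WT threshold of 0.29 was used for both, removing 129 cKO and 148 WT cells.

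CPM are summed UMIs over the cells of a group, scaled to a fixed total over all genes. Intervals are exact (Poisson for sums, binomial for ratios and shares, 95%). Members and lists were chosen with earlier results of these data known. Named are the 12 most abundant replication-dependent members, all variants, members past 1.5-fold between libraries, the 4 highest and 4 lowest genes of each supply list, and genes said to be chosen after their values were seen. H4f16 was placed with the H4 genes by its symbol. The planned B cell background was not usable: without Cd79b, which thymocytes express, the gate kept 13 resting cKO and 27 resting WT cells. Fold calls and intervals were tested on simulated data. Python 3.11.15, numpy 2.4.6 and scipy 1.17.1 were used.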

Additional observations from a re-analysis of the deposited data

Results flagged for a closer look

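In Cd8-positive immature cells the ratio of cKO over WT lay on opposite sides of 1 in cycling and resting cells. For the replication-dependent sum it was 1.05 (1.03 to 1.07) in S-high cells and 0.811 (0.787 to 0.836) in resting cells. For the variant sum it was 1.02 (1.01 to 1.03) in S-high cells and 0.965 (0.953 to 0.977) in resting cells. The difference between the states was not tested, since each genotype has 1 library. Resting cells of this gate had few UMIs, and 1109 cKO and 469 WT cells of the gate were too shallow for a state.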

How the results depend on the processing

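Of 280 recomputed values 162 stayed within the counting interval or 1.5 times the count and 118 moved outside it. A change of side was called only for ratios at least 1.5-fold from 1 in the main setting, and 0 of these changed. The variant ratios of S-high over resting cells and all ratios of cKO over WT could not count, and some of them crossed 1. The cause of each move was not tested. No paired analysis was possible because each genotype has 1 library, and no library could be left out for the same reason. Replication-dependent RNA stayed above resting in S-high cells under all settings. Its ratio, 2.20 in cKO and 2.01 in WT cells, became 2.41 and 2.21 with a stricter cell filter, 2.08 and 2.08 with doublets kept, 1.8 and 1.66 with a threshold of 6, 2.90 and 2.69 with 12, 2.48 and 2.24 with thinning to 3000 UMIs, 2.14 and 2.08 with another seed, 2.16 and 2.05 without thinning, 1.62 and 1.5 as a mean of per-cell CPM, 2.28 and 2.05 with histone, ribosomal protein and mitochondrial genes out of the total, 2.56 and 2.32 relative to the median of all genes, and 1.87 and 1.70 without Hist1h2ap. A looser filter gave 1.95 in WT cells. The variant ratio (1.04 in cKO, 1.06 in WT) became 1.05 and 1.06 with the stricter filter, 0.995 and 1.02 with 6, 1.13 and 1.15 with 12, 1.16 and 1.15 with 3000 UMIs, 0.873 and 0.904 per cell, 1.07 and 1.09 with the smaller total, 1.21 and 1.23 relative to the median, and 1.63 and 1.65 without H3f3b. It was 1.05 in cKO cells with a looser filter, 1.01 in cKO cells without thinning and 1.07 in WT cells with another seed.

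The replication-dependent share of histone UMIs in S and G2M-high cKO cells was 31.6% with 6, 34.3% with 12 and 32.1% with another seed. In WT cells it was 32.9% with the looser filter, 32.8% with doublets, 31.7% with 6, 33.2% with 12, 33.0% with 3000 UMIs, 33.2% without thinning and 32.1% per cell. The summed replication-dependent level of cKO over WT has no settled side of 1 in cycling cells. In resting cells it was 0.885 (stricter filter), 0.921 (doublets), 0.886 (3000 UMIs), 0.931 (another seed), 0.922 (no thinning) and 0.992 (without Hist1h2ap). In S-high cells it was 0.963 (stricter filter), 0.923 (doublets), 0.973 (threshold of 12), 0.959 (another seed), 0.970 (no thinning), 0.966 (per cell), 1.01 (smaller total), 1.0 (median of all genes) and 1.09 (without Hist1h2ap). In S and G2M-high cells it was 0.983 (doublets), 0.995 (threshold of 6), 1.05 (threshold of 12), 0.987 (3000 UMIs), 0.981 (another seed), 0.992 (no thinning), 1.05 (per cell) and 1.11 (without Hist1h2ap).

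For variants cKO over WT was 0.984 (stricter filter), 0.974 (3000 UMIs), 1.02 (no thinning) and 0.990 (without H3f3b) in resting cells. It was 0.984 (looser filter), 0.985 (threshold of 12), 0.990 (smaller total) and 0.987 (median) in S-high cells, and 0.990 (doublets), 1.0 (6), 1.0 (12), 1.02 (per cell) and 1.02 (smaller total) in S and G2M-high cells. Cd8-positive immature over Foxp3-positive resting cells gave, for replication-dependent genes, 4.06 (stricter filter), 3.1 (doublets), 3.84 (no thinning), 2.98 (smaller total) and 2.78 (median) in cKO and 3.44 (doublets), 3.4 (smaller total) and 3.17 (median) in WT cells. For variants it gave 1.48 (3000 UMIs), 1.74 (no thinning), 1.74 (per cell), 1.42 (smaller total) and 1.33 (median) in cKO and 1.78 (doublets), 1.64 (3000 UMIs), 1.90 (per cell), 1.53 (smaller total) and 1.42 (median) in WT cells. Members 1.5-fold higher in cKO in any of 5 states numbered 0, and 1 with the looser filter, doublets or the smaller total and 4 with a pseudocount of 1. Members lower numbered 0, and 1 per cell and 5 with a pseudocount of 1. Resting cells with a replication-dependent UMI were 83.5% of cKO and 86.8% of WT cells at 3000 UMIs, and 93.5% and 95.4% unthinned, when S and G2M-high cells reached 100% in both.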

Other observations

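Several marker-gated stages gave ratios from small groups that are reported as values only. In mature Foxp3-negative intermediate cells the replication-dependent sum of cKO over WT was 0.440 (0.381 to 0.507), from 35 cKO and 37 WT cells, and in S-high cells of that stage it was 1.40 (1.26 to 1.54), from 20 cKO and 25 WT cells. In G2M-high cells the ratio was 0.772 (0.737 to 0.809) in early DN cells, from 36 cKO and 38 WT cells, and 0.817 (0.780 to 0.855) in Ptcra-gated DN cells, from 24 cKO and 34 WT cells, whereas Cd8-positive immature cells gave 1.03 (1.0 to 1.07), from 57 cKO and 75 WT cells.

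Cenpa, the centromeric H3 gene that the symbol rule leaves out, had 37.5 CPM in resting, 236 in S and G2M-high and 570 in G2M-high cKO cells, and 39.7, 206 and 532 CPM in WT cells. Anp32e, whose protein removes H2A.Z from nucleosomes, had 318 CPM in resting, 637 in S-high and 870 in G2M-high cKO cells, and 333, 642 and 886 in WT cells. Both belong to the list of chaperone and exchange genes and were named after their values were seen.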
